A study of Mus musculus with 22 samples.

Results

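The 4 genes of the CPEB family, Cpeb1, Cpeb2, Cpeb3 and Cpeb4, were followed through RNA-seq libraries of interscapular brown adipose tissue from mice with and without CPEB2. They were taken by name, and all 4 of 4 were found among the 55487 gene identifiers of the count tables and passed the filter on low counts in both cohorts. The question was how much Cpeb2 message was left in CPEB2-KO tissue and whether its paralogs changed with it. All 22 mice were on a C57BL/6 background. Mice labelled KO were of a line with Cpeb2 disrupted in all tissues, and WT and KO mice came from heterozygous crosses. Untreated tissue came from 5 WT and 5 KO mice aged 21 to 25 weeks, none of which had received virus. The second cohort received recombinant adeno-associated virus (AAV, packaged as AAV2/8) into the brown fat at 16 weeks, at 20000000000 vector genomes in 30 µl, and its tissue was collected 9 weeks later at 25 weeks of age. In each genotype 3 mice received AAV-GFP and 3 received AAV-PRDM16, groups written here as WT + AAV-GFP and so on. The GFP virus was the control, and the other carried a flag-tagged coding region of PRDM16, a transcriptional regulator of brown fat identity. All AAV mice therefore also shared the injection and the vector.

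CPEB proteins bind the cytoplasmic polyadenylation element, a U-rich motif in the 3′ end of messenger RNAs, through a pair of RNA recognition motifs and a zinc-binding domain. On their targets they recruit either machinery that shortens the poly(A) tail and blocks translation or machinery that lengthens the tail and activates it. CPEB1 is the founding member, best known for the maturation of oocytes. CPEB2, CPEB3 and CPEB4 form a closer subfamily whose RNA-binding regions are nearly alike, so that they can bind overlapping sets of messages. In brown adipocytes CPEB2 is known as an activator of translation of the long form of Ucp1 mRNA, which encodes the uncoupling protein of thermogenesis.

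Because the paralogs are related, it was first asked how far their transcripts share sequence. The longest run of identical bases was found for each pair in the annotated transcripts (GENCODE, mouse build GRCm38), and the 3 longest runs are shown because they limit how far reads of the paralogs could be confused. Each is written in the sense of the transcript, all in lower case.
Cpeb2 and Cpeb4: tattttccaccaaaaggctatgcattcct
Cpeb2 and Cpeb3: gatgaagatgagatcactgccagctt
Cpeb3 and Cpeb4: ccaaccatcaaggataaacc
The Cpeb2 and Cpeb4 run has 29 bases of coding sequence and crosses an exon junction in both genes, at chr5:43278678-43281122 (plus strand) and chr11:31924700-31925361 (plus strand). The Cpeb2 and Cpeb3 run has 26 bases, is also coding and also crosses junctions, at chr5:43277595-43278622 and chr19:37087609-37088426 (minus strand). The Cpeb3 and Cpeb4 run has 20 coding bases, at chr19:37068174-37068193 and chr11:31925447-31925466. Cpeb1 shared no run longer than 14 bases with any of the other 3. No stretch of 50 bases was common to any pair of the 4 genes. With genes outside the family, 89 of the 7894 distinct 50-base stretches of Cpeb2 (1.13%) also lay in its antisense partner Gm7854, and 0.303% of those of Cpeb3 in A330032B11Rik. Neither partner exceeded 48 reads in any library, against at least 168 for Cpeb2 and 687 for Cpeb3. The protein-coding gene March5, which overlaps the span of Cpeb3 on the opposite strand and was abundant, shared 0 exonic bases with it.

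The genes lie on 4 chromosomes. Cpeb1 spans chr7:81347026-81455465 on the minus strand, Cpeb2 chr5:43233170-43289724 on the plus strand, Cpeb3 chr19:37021291-37208601 on the minus strand and Cpeb4 chr11:31872211-31935634 on the plus strand. Their merged exons measure 4192, 7816, 7414 and 6369 bases. Each deposited count sums reads over a whole gene, so exons that the KO allele may leave intact are counted with the rest.

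The libraries were deep, at 55320927 to 162721202 counted reads, but the untreated cohort was uneven. Its common dispersion, the squared biological variation of a typical gene, was 0.312, against 0.0887 in the AAV cohort. Skeletal muscle markers summed to 64.1 to 10037 CPM (reads of a gene per 1000000 scaled reads) in untreated libraries and to 35.7 to 183 CPM in AAV libraries. WT mice 1 and 2 stood apart by a strong gain of long over short transcripts, with a slope of 0.45 on log2 transcript length in each, against -0.42 to 0.08 in the other 8. In the AAV cohort this slope was -0.009 to 0.074 in KO + AAV-GFP and -0.066 to 0.040 in WT + AAV-GFP. It was -0.006 to 0.054 in KO + AAV-PRDM16 and -0.089 to -0.025 in WT + AAV-PRDM16, without overlap. With the slope as a covariate, the genes called averaged over both viruses went from 412 to 1. The labels call every mouse male, yet 6 untreated libraries (WT mice 3 and 5, KO mice 1, 3, 4 and 5) held at most 1.17 CPM of 4 Y-linked transcripts and 104 to 305 CPM of Xist. Those Y-linked transcripts summed to 77.1 CPM or more in the other 4, and to 154 CPM or more in the AAV cohort. Of the other 4, WT mouse 4 held 14.0 CPM of Xist and KO mouse 2 held 1.65 CPM. WT mice 1 and 2 held 0.0876 and 0.0310 CPM of it, and no AAV library held more than 0.268 CPM. Brown adipocyte markers were abundant throughout, with Ucp1, Cidea and Cpt1b the most abundant of the list, and their sum ran from 4537 to 14063 CPM. Averaged over both viruses, 3 of the 15 passed as lower in KO and 7 were lower at an unadjusted p under 0.05, with none higher at that level. Of all genes tested, 1.12% passed as lower in that comparison, and 8.76% were lower and 9.54% higher at the unadjusted level.

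Cpeb2 message fell in the AAV cohort but did not vanish. In WT + AAV-GFP mice 56, 65 and 89 its level was 12.7, 14.0 and 10.5 CPM. In KO + AAV-GFP mice 57, 64 and 69 it was 5.42, 5.51 and 5.55 CPM. All 3 KO libraries lay below all 3 WT libraries, as in 6.88% of all genes tested, and they were nearly equal to one another. In WT + AAV-PRDM16 mice 63, 64 and 80 it was 12.9, 13.3 and 10.5 CPM, and in KO + AAV-PRDM16 mice 59, 65 and 76 it was 5.21, 4.33 and 4.91 CPM. Again the groups did not overlap, which was true of 11.2% of genes in this direction, and the 6 KO libraries all lay below the 6 WT libraries, as in 1.58% of genes. Averaged over both viruses, the KO level was 41.8% of the WT level (95% interval 36.0 to 48.6%), a log2 fold change of -1.26 ± 0.10 (SE), with an adjusted p of 0.000449 in edgeR's quasi-likelihood test. At an adjusted p of 0.05, 1.12% of the genes tested were lower in KO in that comparison. With the GFP virus alone the KO retained 44.3% (35.9 to 54.7%), with an adjusted p of 0.0200, where 0.0476% of genes were lower. With the PRDM16 virus it retained 39.5% (31.9 to 48.8%), with an adjusted p of 0.0108, and Cpeb2 was the only gene called lower among 18899 (0.00529%). Within 1 virus the call did not hold under all settings. With GFP it was lost without WT mouse 56 (-1.16 on the log2 scale, adjusted p 0.0527), WT mouse 65 (-1.08, 0.0741), KO mouse 57 (-1.17, 0.0540) or KO mouse 64 (-1.18, 0.137) and with the replicate number as a block (-1.17, 0.0643). It was also lost there with library totals alone (0.324), the muscle score (0.0925), the length slope (0.0510) or only the libraries compared (0.406). With PRDM16 it was lost without WT mouse 63 (-1.30, 0.0581), WT mouse 64 (-1.28, 0.0560) or KO mouse 65 (-1.27, 0.0507), and with library totals alone (0.0868) or only the libraries compared (0.0564). The averaged call held without any 1 library. The interaction of genotype and virus was -0.17 on the log2 scale (95% interval -0.59 to 0.26) and did not pass. The 3 brown adipocyte markers that passed in the averaged comparison were lower in KO too, and the sums over that list were 4800 to 5507 CPM in KO + AAV-GFP against 4537 to 7124 CPM in WT + AAV-GFP, and 4718 to 5976 CPM in KO + AAV-PRDM16 against 6361 to 8110 CPM in WT + AAV-PRDM16. Their part in the level of Cpeb2 was not tested. In bulk tissue, fewer cells of a type and less RNA per cell cannot be told apart.

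**Figure D1:**
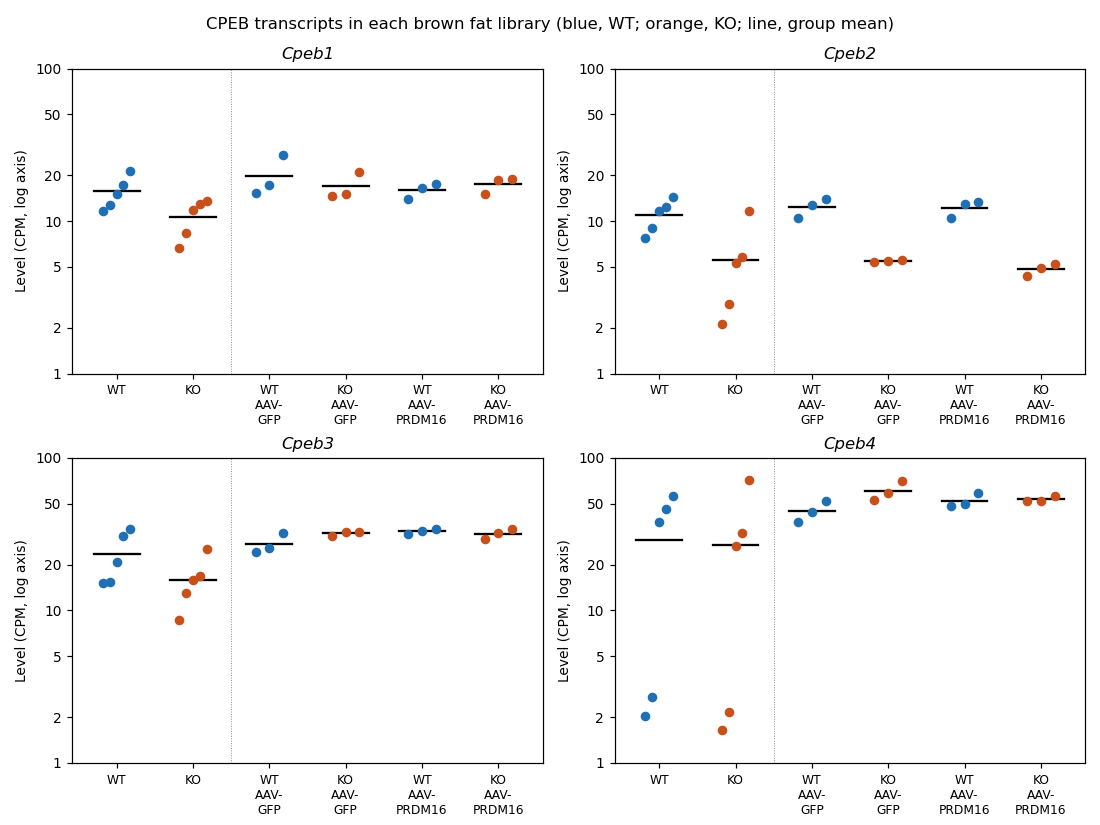
Level of each CPEB gene in every library, in CPM on a log axis, with WT mice in blue, KO mice in orange and a line at the group mean. Cpeb2 is lower in all 6 KO than in all 6 WT libraries of the AAV cohort, while in the untreated cohort KO mouse 1 sits among the WT mice and Cpeb4 splits into libraries near 2 CPM and libraries above 26 CPM in both genotypes.

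The untreated cohort gave a less clear picture of the same gene. WT mice 1 to 5 held 11.7, 9.00, 7.69, 12.4 and 14.3 CPM of Cpeb2. The libraries labelled KO, mice 1 to 5, held 11.7, 5.27, 2.86, 5.78 and 2.10 CPM. The library labelled KO mouse 1 was thus inside the WT range, whereas the other 4 labelled KO lay below every WT library. With all 10 libraries the KO level was 50.2% of WT (95% interval 27.1 to 93.0%), a log2 fold change of -0.99 ± 0.41 (SE) with an adjusted p of 0.305, and no call was made. No gene passed in this comparison with edgeR (0% of 17869), with DESeq2 or with limma-voom. An unadjusted p under 0.05 was held by 2836 genes (15.9%) in edgeR, 3493 in DESeq2 and 2491 in limma-voom. In edgeR that count was 415 with the length slope as a covariate and 1241 with Y-linked transcripts as a covariate. It was 434 of 18681 without WT mice 1 and 2. With the replicate number as a block it was 3370, and with no filter on low counts 3910 of 30266. In edgeR with all 10 libraries and no covariate, Cpeb2 was among the 10.9% of genes that were lower at that unadjusted level. Without the library labelled KO mouse 1 the log2 fold change was -1.46, with an adjusted p of 0.160. That was the largest fall among 21 alternatives, which ran from -1.46 to -0.74. None of the 21 called Cpeb2, and 12 had an unadjusted p under 0.05. Their adjusted p values, each from its own fit, were 0.156 to 0.95. The direction drawn for any other gene in this cohort rests on the same labels.

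Cpeb1, the most distant paralog, did not pass the test in any comparison. In the AAV cohort its level was 27.0, 15.2 and 17.3 CPM in WT + AAV-GFP and 14.5, 21.1 and 15.0 CPM in KO + AAV-GFP. With AAV-PRDM16 it was 14.0, 16.4 and 17.6 CPM in WT and 18.6, 18.9 and 15.2 CPM in KO. The groups overlapped with either virus. Averaged over both viruses the KO to WT ratio was 0.967 (95% interval 0.773 to 1.21), with an adjusted p of 0.908. A rise of more than 1.21-fold therefore lay outside the interval. In untreated mice the levels were 17.1, 21.4, 11.7, 12.8 and 15.1 CPM in WT and 13.0, 13.6, 11.9, 6.63 and 8.32 CPM in the libraries labelled KO. The untreated log2 fold change was -0.55 ± 0.26 (SE), which is towards lower and not higher values in KO, with an adjusted p of 0.318.

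Cpeb3 was the steadiest member in the AAV cohort. Its level was 25.8, 32.4 and 24.2 CPM in WT + AAV-GFP and 32.9, 30.9 and 32.5 CPM in KO + AAV-GFP. It was 34.3, 31.6 and 33.1 CPM in WT + AAV-PRDM16 and 32.0, 29.5 and 34.2 CPM in KO + AAV-PRDM16. Over these 12 libraries the highest value was only 1.42 times the lowest, compared with 1.87 for Cpeb4, 1.94 for Cpeb1 and 3.22 for Cpeb2. The KO to WT ratio averaged over both viruses was 1.06 (95% interval 0.944 to 1.20), with an adjusted p of 0.608. In untreated mice it was 34.5, 31.0, 15.4, 20.9 and 15.1 CPM in WT and 25.2, 16.8, 12.9, 15.8 and 8.61 CPM in the libraries labelled KO. The log2 fold change there was -0.56 ± 0.33 (SE), with an adjusted p of 0.375. It was -0.07 without WT mice 1 and 2, which held the highest Cpeb3 levels and the steepest length slopes, and 0.07 with the length slope as a covariate.

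Cpeb4 was the only paralog whose KO and WT libraries separated, and only with the control virus. In WT + AAV-GFP mice 56, 65 and 89 it was 44.1, 52.3 and 37.8 CPM. In KO + AAV-GFP mice 57, 64 and 69 it was 53.2, 59.1 and 70.9 CPM. All 3 KO values were above all 3 WT values, by less than 1 CPM at the nearest, and 6.51% of all genes separated in this way in the same comparison. The ratio was 1.36 (95% interval 1.11 to 1.67), with an unadjusted p of 0.00628 and an adjusted p of 0.346 in edgeR, so no call was made. Of all genes tested, 4.98% were higher at an unadjusted p under 0.05. With the PRDM16 virus the levels were 58.7, 50.3 and 48.7 CPM in WT and 55.9, 52.6 and 52.4 CPM in KO, which overlapped, and the ratio was 1.02 (95% interval 0.832 to 1.25). The difference between the viruses was -0.42 on the log2 scale (95% interval -0.84 to -0.00), with an unadjusted p of 0.0495 in edgeR, below which 1.6% of genes lay in that direction, and no gene passed after adjustment (0%). Averaged over both viruses the ratio was 1.18 (95% interval 1.02 to 1.36), with an adjusted p of 0.207. DESeq2 gave the GFP comparison an adjusted p of 0.0885, and limma-voom 0.198. Macrophage markers moved with this contrast: 8 of 8 were higher in KO + AAV-GFP at an unadjusted p under 0.05, and their summed level was 152 to 375 CPM against 59.9 to 130 CPM in WT + AAV-GFP, none of the 8 being at 0. In the same comparison 11 of 23 skeletal muscle markers were higher in KO and 5 of 15 brown adipocyte markers lower at that unadjusted level. Of all 18899 genes, 1734 were at that level in either direction, 941 of them higher and the rest lower. The muscle sum was 41.8 to 183 CPM in KO + AAV-GFP and 41.7 to 45.4 CPM in WT + AAV-GFP, the highest value being that of mouse 57. The part of these lists in the level of Cpeb4 was not tested.

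**Figure D2:**
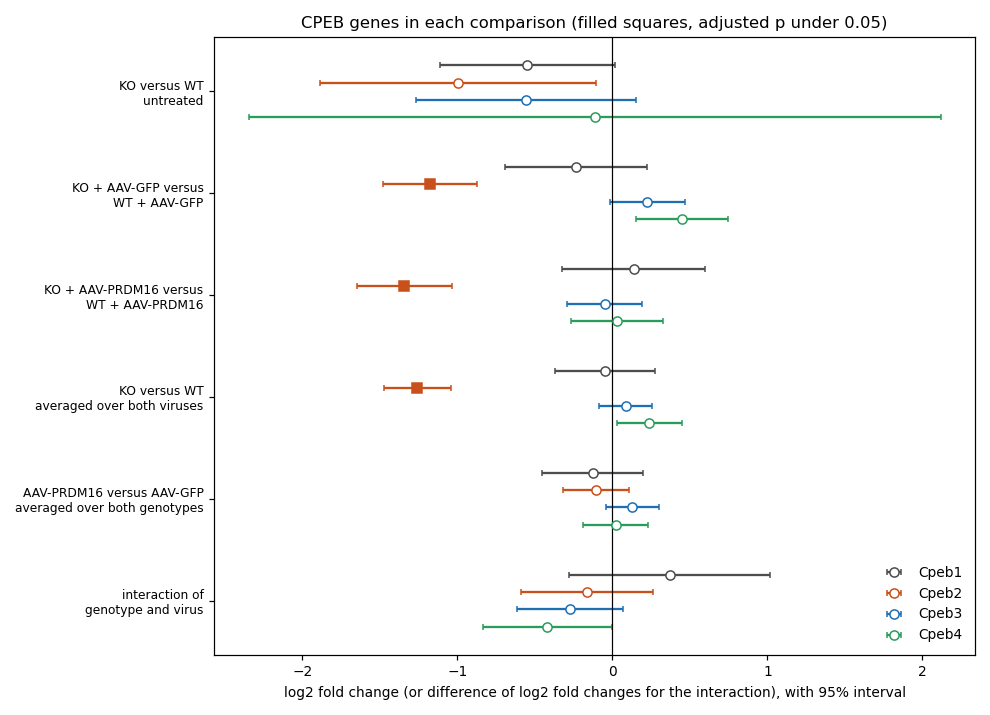
Log2 fold change of each CPEB gene in each comparison with its 95% interval from the edgeR fit, filled squares marking an adjusted p under 0.05. Cpeb2 passes in the 3 KO against WT comparisons of the AAV cohort, the intervals of Cpeb1 and Cpeb3 include 0 throughout, and the untreated interval of Cpeb4 is by far the widest at -2.34 to 2.12.

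In untreated tissue Cpeb4 split into a low and a high set of libraries. WT mice 1 to 5 held 56.7, 46.3, 2.03, 37.8 and 2.69 CPM of Cpeb4. The libraries labelled KO, mice 1 to 5, held 72.0, 32.0, 2.16, 26.6 and 1.65 CPM. In counts, the low libraries had 138, 281, 187 and 132 reads, and the others 1342 to 7450. WT mice 3 and 5 and the libraries labelled KO mice 3 and 5 therefore lay far below the other 6, in both genotypes alike. Sorted on the log2 scale, the widest gap between neighbouring libraries was 3.30, a 9.83-fold step, whereas it was at most 0.88 for the other members. Among 17869 genes only 132 had a wider gap, the first 3 being Gm20716, Nphs1 and the Y-linked Eif2s3y. For 126 genes the same 4 libraries were the 4 lowest, and of these Cpeb4 was the only gene to have a gap over 1, the next being 0.93 for a transcript of very low level. The 4 libraries were set by the gap of Cpeb4 itself, so its first place among these genes was favoured by that choice. For 406 other genes the 4 were the highest libraries, with gaps of up to 0.81. The 4 libraries were among the 6 without Y-linked transcripts, yet the libraries labelled KO mice 1 and 4, which also lacked them, held 72.0 and 26.6 CPM. Length slopes were -0.14, -0.07, -0.27 and -0.42 in the 4 low libraries and -0.19 to 0.45 in the other 6. Skeletal muscle markers summed to 145 to 4883 CPM in the 4 and to 64.1 to 10037 CPM in the other 6. Brown adipocyte markers summed to 9016 to 14063 CPM in the 4, against 11982 CPM in the library labelled KO mouse 4 and 4826 to 6896 CPM in the other 5. The part of any of these in the level of Cpeb4 was not tested. In the AAV cohort no library held less than 37.8 CPM.

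With such a spread, the genotype comparison of Cpeb4 in untreated mice had a wide interval. The log2 fold change was -0.11 ± 1.03 (SE), with a 95% interval of -2.34 to 2.12 and an adjusted p of 0.959. It ranged from -0.90 without the library labelled KO mouse 1 to 2.37 with Y-linked transcripts as a covariate, and no setting called it.

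Ectopic PRDM16 moved none of the 4 genes past the threshold. Prdm16 counts averaged 92.9 CPM with AAV-PRDM16 and 33.0 CPM with AAV-GFP (6 mice each), with an adjusted p of 0.0527 in edgeR. In them the message of the virus cannot be told apart from that of the mouse. Single libraries were uneven, from 45.9 CPM (WT mouse 80) to 128 CPM (KO mouse 65) with AAV-PRDM16. With AAV-GFP they held 23.9 to 40.2 CPM. Against that, the log2 fold change of AAV-PRDM16 over AAV-GFP, averaged over both genotypes, was -0.13 for Cpeb1, -0.11 for Cpeb2, 0.13 for Cpeb3 and 0.02 for Cpeb4. The 95% intervals of all 4 lay between -0.45 and 0.30. The adjusted p values in edgeR were 0.763 to 0.989, and 0.037% of all genes passed.

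Levels of different genes were compared per length, as RPKM, the CPM divided by the length of the merged exons in kilobases. In the AAV cohort Cpeb4 was the most abundant member, with 8.32 ± 1.28 RPKM (SD, n = 12). It was above each of the other members in 12 of 12 libraries. Cpeb3 and Cpeb1 followed with 4.20 ± 0.43 and 4.19 ± 0.87 RPKM, and they did not differ beyond their spread: Cpeb1 was the higher in 5 of 12 libraries. Cpeb2 was the least abundant at 1.12 ± 0.50 RPKM over both genotypes, below each of the others in 12 of 12 libraries, WT libraries included. In WT mice it measured 1.59 ± 0.22 RPKM with AAV-GFP and 1.56 ± 0.20 with AAV-PRDM16, and in KO mice 0.703 ± 0.008 and 0.616 ± 0.057 (SD, n = 3 each). In the untreated cohort Cpeb2 was below Cpeb1 and Cpeb3 in 10 of 10 libraries but above Cpeb4 in the 4 libraries where Cpeb4 was low. The place of Cpeb1 depends on its length: with its longest transcript of 3111 bases in place of 4192 bases of merged exons its AAV mean was 5.65 RPKM, and Cpeb4 was above it in 11 of 12 libraries.

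The shares of the family followed from these levels. Cpeb2 made up 9.31 ± 0.564% of the summed RPKM of the 4 genes in WT + AAV-GFP and 8.64 ± 0.995% in WT + AAV-PRDM16. It made up 3.78 ± 0.272% in KO + AAV-GFP and 3.52 ± 0.270% in KO + AAV-PRDM16 (SD, n = 3 each). The summed level was 17.1 ± 2.1 RPKM in WT + AAV-GFP, 18.6 ± 1.5 in KO + AAV-GFP, 18.1 ± 0.6 in WT + AAV-PRDM16 and 17.5 ± 0.6 in KO + AAV-PRDM16, and the ranges of WT and KO overlapped with either virus. In untreated libraries the sum ran from 3.67 to 19.3 RPKM. Cpeb2 held 6.51 to 23.2% of it in WT and 6.02 to 8.56% in the libraries labelled KO, so its share overlapped between genotypes there. Cpeb4 held 41.0 to 58.6% of it in 6 libraries and 5.15 to 7.07% in WT mice 3 and 5 and in those labelled KO mice 3 and 5.

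**Figure D3:**
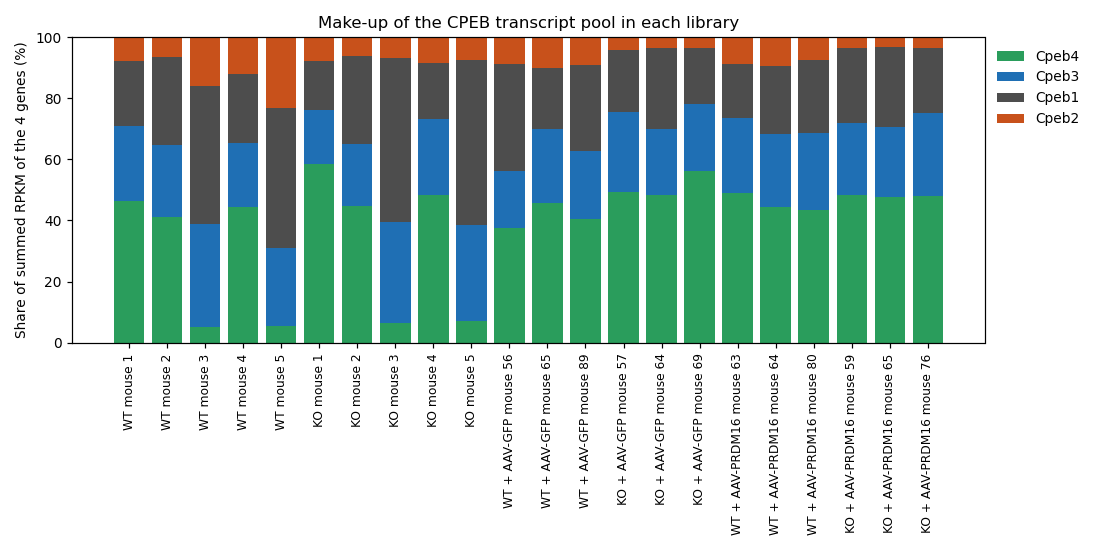
Share of each CPEB gene in the summed RPKM of the 4 genes, one bar per library, in percent. Cpeb2, at the top of each bar, takes 7.59 to 9.92% in WT and 3.20 to 4.09% in KO libraries of the AAV cohort, and 4 untreated bars have a Cpeb4 share below 8%. The untreated shares of Cpeb2 overlap between WT and KO.

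The machinery that works with CPEB proteins was examined as a list of 38 genes: the cleavage and polyadenylation factors and symplekin, poly(A) polymerases and deadenylases, Tob adaptors, cap-binding proteins and repressors, poly(A)-binding proteins, and known protein partners. All 38 were tested, and 0 passed in edgeR at an adjusted p of 0.05 in any of the 6 comparisons. At an unadjusted p under 0.05, 1 gene was higher and 6 lower in untreated KO, where the background was 4.99% higher and 10.9% lower. Averaged over both viruses 5 were higher and 2 lower in KO, against 9.54 and 8.76% of all genes. The median log2 fold change of the list was -0.31 untreated and -0.00 averaged over both viruses, against 0.04 and 0.01 over all genes. DESeq2 called 1 gene of the list, Zfp36, in the averaged comparison (log2 fold change 0.48, adjusted p 0.0228), and limma-voom called none. Of all 18899 genes, DESeq2 called 1584 there, 834 of them higher, and limma-voom 1269. Zfp36 encodes an RNA-binding protein that speeds decay of AU-rich messages, and edgeR gave it an adjusted p of 0.101. The macrophage markers described beside Cpeb4 moved with this contrast too, and their part in the level of Zfp36 was not tested.

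The most abundant genes of that list moved little with genotype in the AAV cohort. Eef2, the elongation factor that CPEB2 is known to bind, averaged 376 RPKM over all libraries, and its log2 fold change averaged over both viruses was -0.11 ± 0.07 (SE). Aplp2, of the amyloid precursor protein family, gave 0.15 ± 0.12. Tob1 and Tob2, adaptors that bring the CCR4-NOT deadenylase to CPEB-bound messages, gave -0.07 ± 0.11 and 0.14 ± 0.12. The poly(A)-binding proteins Pabpc1 and Pabpc4 gave -0.02 ± 0.07 and -0.21 ± 0.08. The lowest adjusted p of these 6 was 0.180, for Pabpc4. In untreated tissue, mean levels in KO and WT were 1757 and 1142 CPM for Eef2 and 398 and 650 CPM for Aplp2. They were 172 and 226 CPM for Tob1, 224 and 222 for Tob2, 330 and 410 for Pabpc1, and 107 and 97.6 for Pabpc4. The untreated WT and KO libraries overlapped for each of these genes, and none passed.

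The chromosome around Cpeb2 was searched for 1000000 bases beyond either end, a region with 44 other genes in the tables. In the AAV cohort 14 of them were tested and in untreated mice 11. No tested protein-coding gene lay upstream of Cpeb2 within that distance. The nearest downstream was C1qtnf7, which encodes a secreted C1q-like protein, 225814 bases past the end of Cpeb2. It was scarce, at 0.356 CPM in KO and 0.248 CPM in WT averaged over both viruses, with an adjusted p of 0.532. The only neighbour that passed in edgeR was Cd38, which encodes a NAD-consuming ectoenzyme of immune and other cells, 578829 bases downstream.

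Cd38 was higher in KO tissue of the AAV cohort. It was 5.10, 4.56 and 5.22 CPM in WT + AAV-GFP mice 56, 65 and 89 and 6.17, 7.04 and 10.5 CPM in KO + AAV-GFP mice 57, 64 and 69. It was 4.08, 3.79 and 2.73 CPM in WT + AAV-PRDM16 mice 63, 64 and 80 and 6.48, 5.65 and 11.2 CPM in KO + AAV-PRDM16 mice 59, 65 and 76. All 6 KO libraries were above all 6 WT libraries, as in 1.13% of all genes. The log2 fold change averaged over both viruses was 0.90 ± 0.19 (SE), with an adjusted p of 0.0355, where 1.06% of all genes were called higher. The call was lost when any of 10 libraries was left out, with adjusted p values up to 0.0857, and was kept only without KO + AAV-GFP mouse 57 or KO + AAV-PRDM16 mouse 65. It was also lost with library totals alone, with the muscle score and with the length slope (adjusted p 0.0932, 0.0529 and 0.210). In untreated mice Cd38 overlapped between genotypes, at 3.96 to 9.03 CPM in WT and 2.61 to 12.8 CPM in the libraries labelled KO. Macrophage markers moved with the same contrast: 4 of 8 passed as higher in KO, all 8 had positive log2 fold changes with a median of 1.004, and their sum was 152 to 375 CPM in KO + AAV-GFP against 59.9 to 130 CPM in WT + AAV-GFP, and 81.9 to 99.9 CPM in KO + AAV-PRDM16 against 43.0 to 54.1 CPM in WT + AAV-PRDM16. Their part in the level of Cd38 was not tested. Among the other neighbours, Cc2d2a (0.40 ± 0.12) and Bst1 (1.31 ± 0.39) had adjusted p values of 0.0995 and 0.0994 in edgeR and were called by DESeq2, Cc2d2a also by limma-voom. Of all 18899 genes, DESeq2 called 834 higher in that comparison and limma-voom 576. In untreated mice Cc2d2a had the opposite sign, -0.91 ± 0.43, and Bst1 gave 1.04 ± 1.17, neither passing.

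**Figure D4:**
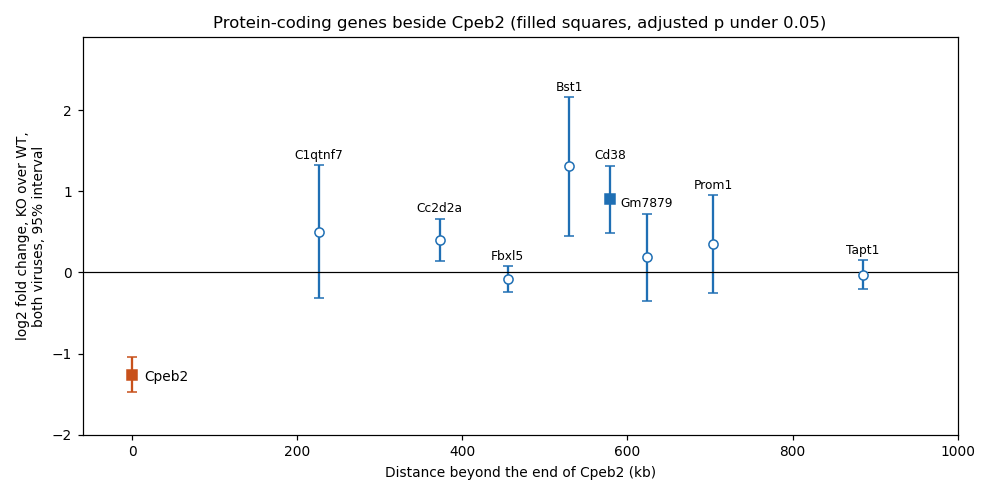
Log2 fold change of KO over WT, averaged over both viruses, with its 95% interval, for Cpeb2 and the protein-coding genes tested within 1000000 bases downstream of it, by distance beyond the end of Cpeb2 in kilobases, filled squares marking an adjusted p under 0.05. Cpeb2 is lower at -1.26, Cd38 is the only neighbour past the threshold at 0.90, and no tested protein-coding gene lies on the upstream side.

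Messages linked to CPEB2 in the study (Ucp1, Prdm16) or in earlier work that it cites (Hif1a, Pdgfra, Gripap1, Chat) were set beside the family. The message of Ucp1 was 1905 CPM in KO and 1721 CPM in WT with AAV-GFP, and 1808 and 2790 CPM with AAV-PRDM16. Its log2 fold change was 0.15 ± 0.31 (SE) with GFP, -0.63 ± 0.31 with PRDM16 and 0.54 ± 0.41 in untreated mice, so its sign was not the same throughout. Prdm16 was read where no PRDM16 virus was given: it was -0.67 ± 0.28 in untreated mice (18.3 CPM in KO and 29.0 CPM in WT, adjusted p 0.306 in edgeR), and -0.03 ± 0.33 with AAV-GFP. Hif1a, the oxygen-regulated transcription factor, gave -0.80 ± 0.42 untreated and -0.08 ± 0.08 averaged over both viruses. Pdgfra, a receptor of adipocyte progenitors, gave -0.41 ± 0.40 and 0.38 ± 0.14, and Gripap1 -0.11 ± 0.23 and -0.06 ± 0.07, in the same order. None of the 5 passed in any KO against WT comparison, the lowest adjusted p in edgeR being 0.170, for Pdgfra averaged over both viruses. Chat was too scarce to be tested in either cohort. These counts describe messages and not their translation.

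Genes whose levels ran most like each member were listed by Pearson correlation of log2 CPM over the 12 AAV libraries. For Cpeb2 these were Ubqln4 (r = 0.95), Ergic3 (0.93) and Smdt1 (0.91), with -0.54, -0.72 and -0.66 over the 10 untreated libraries. For Cpeb1 they were Pim3 (0.94), Cdk2 (0.91) and Dlgap4 (0.89), with -0.62, 0.32 and -0.46. For Cpeb3 they were Dph3 (0.93), Dph6 (0.89) and Prkce (0.87), with -0.76, 0.79 and 0.77. For Cpeb4 they were Txndc11 (0.90), Pabpc1l (0.89) and Donson (0.89), with -0.31, 0.67 and 0.20. The lists chosen in the AAV cohort therefore seldom held in the untreated one: of these 12 genes, 5 had a positive correlation of any size in untreated tissue. Genes chosen in the same way over the untreated libraries were mostly positive in the AAV libraries, though often weakly, at -0.27 to 0.80. Libraries of a cohort share their preparation and scaling, so these values are descriptions only. With Cpeb2 lower in every KO than in every WT library of the AAV cohort, its correlations there also take in the difference between genotypes. Between members, Cpeb3 and Cpeb4 had r = 0.72 in the AAV and 0.82 in the untreated libraries. By ranks (Spearman correlation) the values were 0.39 and 0.93, so the AAV likeness was weaker on that measure. Cpeb1 and Cpeb3 ran oppositely in the AAV cohort (r = -0.64) but together in the untreated one (0.70).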

How the data were processed

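Read counts per gene were measured by RNA-seq in 22 brown fat libraries. According to the deposited files and processing notes, the authors trimmed reads (Trimmomatic 0.36), aligned them with HISAT2 to GRCm38.p6 and deposited whole-number counts per Ensembl gene. The counting tool, annotation, strand setting and duplicate handling, and which Cpeb2 exons the KO lacks, are not given in the sources used here. Symbols and lengths came from GENCODE M21.

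Each cohort was fitted separately with edgeR 4.0.16 in R 4.3.3 (filterByExpr, TMM scaling, quasi-likelihood F test, two-sided, Benjamini-Hochberg adjustment over all 17869 or 18899 genes, threshold 0.05). SE was the absolute log2 fold change divided by the square root of F. CPM used TMM-scaled totals. Intervals of 95% are confidence intervals of the difference between groups. They take in the spread between mice through the SE and are not ranges of single mice. The fit was tested on simulated data with known changes. Alternatives included DESeq2 1.42.0 and limma 3.58.1 (voom). Members and gene lists were chosen with earlier results of these data known. Named genes were the members, complex-list genes that passed plus the 6 with the highest mean RPKM, the nearest tested protein-coding neighbours and any that passed, the 3 best-correlated genes per member, and 6 transcripts linked to CPEB2 in the study or in work that it cites. Zfp36, Cc2d2a, Bst1 and March5 were named after their values were seen.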

Additional observations from a re-analysis of the deposited data

How the results depend on the processing

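The fall of Cpeb2 averaged over both viruses kept its direction and its call under all 21 alternatives (log2 fold change -1.40 to -1.21, highest adjusted p 0.0125). Within 1 virus it kept its direction under all 22 but was called in 13 with GFP and 17 with PRDM16. It was not called with library totals alone (-1.14 with GFP, -1.29 with PRDM16) or with only the libraries compared (-1.18 and -1.34). With GFP it was also not called with the replicate block (-1.17), the muscle score (-1.21) or the length slope, an alternative chosen after seeing the data (-1.29), and the cause was not tested. Leaving out each library gave -1.28 to -1.08 (GFP) and -1.44 to -1.27 (PRDM16), with adjusted p values up to 0.137 and 0.0581. No alternative called Cpeb1, Cpeb3 or Cpeb4 in any comparison.

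Signs turned only for values that were not called. Untreated Cpeb4 became 0.055 with library totals alone, 0.35 with limma-voom, 2.37 with Y-linked transcripts as a covariate, 1.85 with the length slope and 0.96 without WT mice 1 and 2, and -0.90 to 0.27 with 1 library left out. Untreated Cpeb3 became 0.072 with the length slope. With that slope Cpeb1 became -0.25 and Cpeb4 -0.15 for KO against WT with PRDM16, and Cpeb1 0.020 for PRDM16 against GFP. Cpeb4 in the latter became -0.032 with library totals alone. Cpeb1 averaged over both viruses became 0.079 with limma-voom. Leaving out 1 library, Cpeb1 ran from -0.43 to 0.052 with GFP, -0.14 to 0.095 averaged over viruses and -0.21 to 0.016 for PRDM16 against GFP, Cpeb4 from -0.022 to 0.11 with PRDM16 and -0.032 to 0.085 for PRDM16 against GFP, and Cpeb3 from -0.10 to 0.0044 with PRDM16.

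The complex list had 0 genes called, and 1 with DESeq2 averaged over both viruses. Neighbours of Cpeb2 called numbered 1 averaged over both viruses, 0 within 500000 bases, 0 to 1 with 1 library left out, 2 with limma-voom and 3 with DESeq2, which also called 2 for KO against WT with PRDM16 (limma-voom 1) and 1 for PRDM16 against GFP. With the longest transcript as the length, mean RPKM was 4.23 (untreated) and 5.65 (AAV) for Cpeb1 and 5.28 (AAV) for Cpeb3. Correlations of same-numbered libraries were -0.29 to 0.15, which cannot show whether the replicate numbers paired mice. Over all genes, the 412 calls averaged over both viruses became 1584 with DESeq2, 1269 with limma-voom, 250 with no filter on low counts, 167 with the muscle score, 41 with library totals alone and 1 (Cpeb2) with the length slope. The 10 calls with GFP ranged from 0 to 240, the 9 with PRDM16 from 1 to 626 and the 7 for PRDM16 against GFP from 0 to 602. The replicate block moved the calls over all genes averaged over both viruses from 412 to 344, those with GFP from 10 to 1 and those with PRDM16 from 9 to 5.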
